A study of Homo sapiens with 10 samples.

Results

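The BCR-ABL and STAT5 signalling genes are 10 genes chosen by name: BCR and ABL1, the partners of the fusion kinase, CRKL, STAT5A, STAT5B, and the outputs PIM1, MYC, BCL2L1, SOCS2 and CISH. All 10 were among the 20535 genes with a value in every library, and all 10 entered the tests, as did 10127 genes in all whose mean over the libraries reached 1 TPM. TPM is a gene's share of all transcripts per length of transcript, scaled to a fixed total. K562 is a human erythroleukemia line that grew out of chronic myelogenous leukemia. RNA-seq was performed on K562 cells of 5 groups with 2 libraries each, 10 in all. The control group carried sgGal4, a guide with no target in the genome, and its labels do not name an effector. The other 4 groups carried sgHS2 guides to HS2, an enhancer in the locus control region of the β-globin genes. Of these, the single-effector groups were labelled dCas9-KRAB (K) and dCas9-LSD1 (L). The dual-effector groups were enCRISPRi-LK, with dCas9-LSD1 and MCP-KRAB, and enCRISPRi-KL, with dCas9-KRAB and MCP-LSD1. KRAB is a repressor domain, LSD1 is a histone demethylase, and MCP binds the MS2 hairpins of the guide. The methods describe doxycycline-inducible fusions brought in by lentivirus and sorted populations of fluorescent cells, not clones. No treatment aimed at BCR-ABL or STAT5 is named for any group.

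In chronic myelogenous leukemia, the exchange between chromosomes 9 and 22 joins BCR to ABL1 and gives a tyrosine kinase that is always active. The kinase phosphorylates the adaptor CRKL and the transcription factors STAT5A and STAT5B, which then enter the nucleus and bind the STAT motif TTCNNNGAA. PIM1, BCL2L1, SOCS2 and CISH are textbook STAT5 target genes, and SOCS2 and CISH, which code for SOCS family proteins, act back on cytokine receptor signalling. MYC is another output of the kinase. Activity of BCR-ABL or STAT5 was not measured here, only the levels of transcripts.

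STAT motifs are shown on a pair of promoters, that of CISH, which held the most matches among the genes searched, and that of PIM1, which passed the tests below. Promoters were taken from RefSeq (GRCh38.p14) as the 250 bases before and 50 bases after the start of the gene, and both strands were searched for TTCNNNGAA, which reads the same on both. An entry was found and searched for 8 of the 10 genes, and the promoters of MYC and SOCS2 were not searched. Of 35116 such promoters, 2689 (7.66%) held the motif and 7 (0.0199%) held it at least 4 times. The promoters of BCR, ABL1, CRKL, STAT5A, STAT5B, BCL2L1 and PIM1 held 0 matches, and the CISH promoter held 4. The CISH matches TTCCTGGAA, TTCTTGGAA, TTCTAGGAA and TTCCGGGAA began 241, 230, 129 and 112 bases before the start. A match is a run of letters, and no binding was measured here. The sequences below are written 5′ to 3′ on the strand of the gene, with the matches in capitals. CISH lies on the minus strand (chr3:50611725-50612024) and PIM1 on the plus strand (chr6:37169902-37170201).
CISH: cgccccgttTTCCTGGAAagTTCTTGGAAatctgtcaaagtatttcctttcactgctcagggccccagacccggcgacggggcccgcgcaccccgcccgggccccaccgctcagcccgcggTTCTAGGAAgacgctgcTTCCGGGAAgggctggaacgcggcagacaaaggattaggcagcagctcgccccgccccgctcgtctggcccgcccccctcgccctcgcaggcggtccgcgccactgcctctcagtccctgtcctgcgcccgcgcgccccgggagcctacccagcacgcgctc
PIM1: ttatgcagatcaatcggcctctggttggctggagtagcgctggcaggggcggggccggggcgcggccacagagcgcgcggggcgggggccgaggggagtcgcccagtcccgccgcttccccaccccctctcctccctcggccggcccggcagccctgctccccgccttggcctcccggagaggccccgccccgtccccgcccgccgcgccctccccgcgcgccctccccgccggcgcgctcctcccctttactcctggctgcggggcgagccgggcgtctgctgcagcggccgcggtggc

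PIM1 and SOCS2 were lower in sgHS2 cells than in sgGal4 cells, and the other 8 genes did not pass the test in any comparison. On the log2(TPM + 1) scale, PIM1 fell by 0.91 (SE 0.14) in the mean of the 4 sgHS2 groups, and SOCS2 fell by 0.73 (SE 0.16). PIM1 passed the test in each of the 4 groups, and SOCS2 passed with enCRISPRi-KL and between the dual-effector groups. Differences were tested by limma in one fit of the 10 libraries, and adjusted p values are Benjamini-Hochberg values over the 10127 genes, with 0.05 as the threshold. The 4 comparisons with sgGal4 share the same 2 control libraries. The p values rest only on the spread between libraries of a group, pooled over the 5 groups and moderated with genes of similar level. The study describes the 2 libraries of a group as separate experiments without naming separate cultures. In the test for any difference among the 5 groups, 2 of the 10 genes passed, against 1.82% of all genes tested. These were PIM1 (adjusted p = 0.0265) and SOCS2 (adjusted p = 0.0139). The 10 genes were chosen with earlier results of these data known, so the shares set beside them are a description and not a test. In the single comparisons, 1 of the 10 genes passed for dCas9-KRAB (1.62% of all genes), 1 for dCas9-LSD1 (0.869%), 1 for enCRISPRi-LK (2% of all genes) and 2 for enCRISPRi-KL (1.36%), each against sgGal4. With the 4 sgHS2 groups averaged, 2 of the 10 genes passed against sgGal4, and so did 3.26% of all genes. Between enCRISPRi-LK and enCRISPRi-KL, 1 gene passed, against 0.385% of all genes. Between the dual and the single effectors, 0 of the 10 genes passed the limma test against 0.0889% of all genes. In this comparison 1 of the 10, CISH, had an unadjusted limma p under 0.05, as did 7.45% of all genes. The median difference over the 10 genes was -0.03 for the mean of the sgHS2 groups, and that over all genes was 0.03, both on the log2(TPM + 1) scale.

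**Figure D1:**
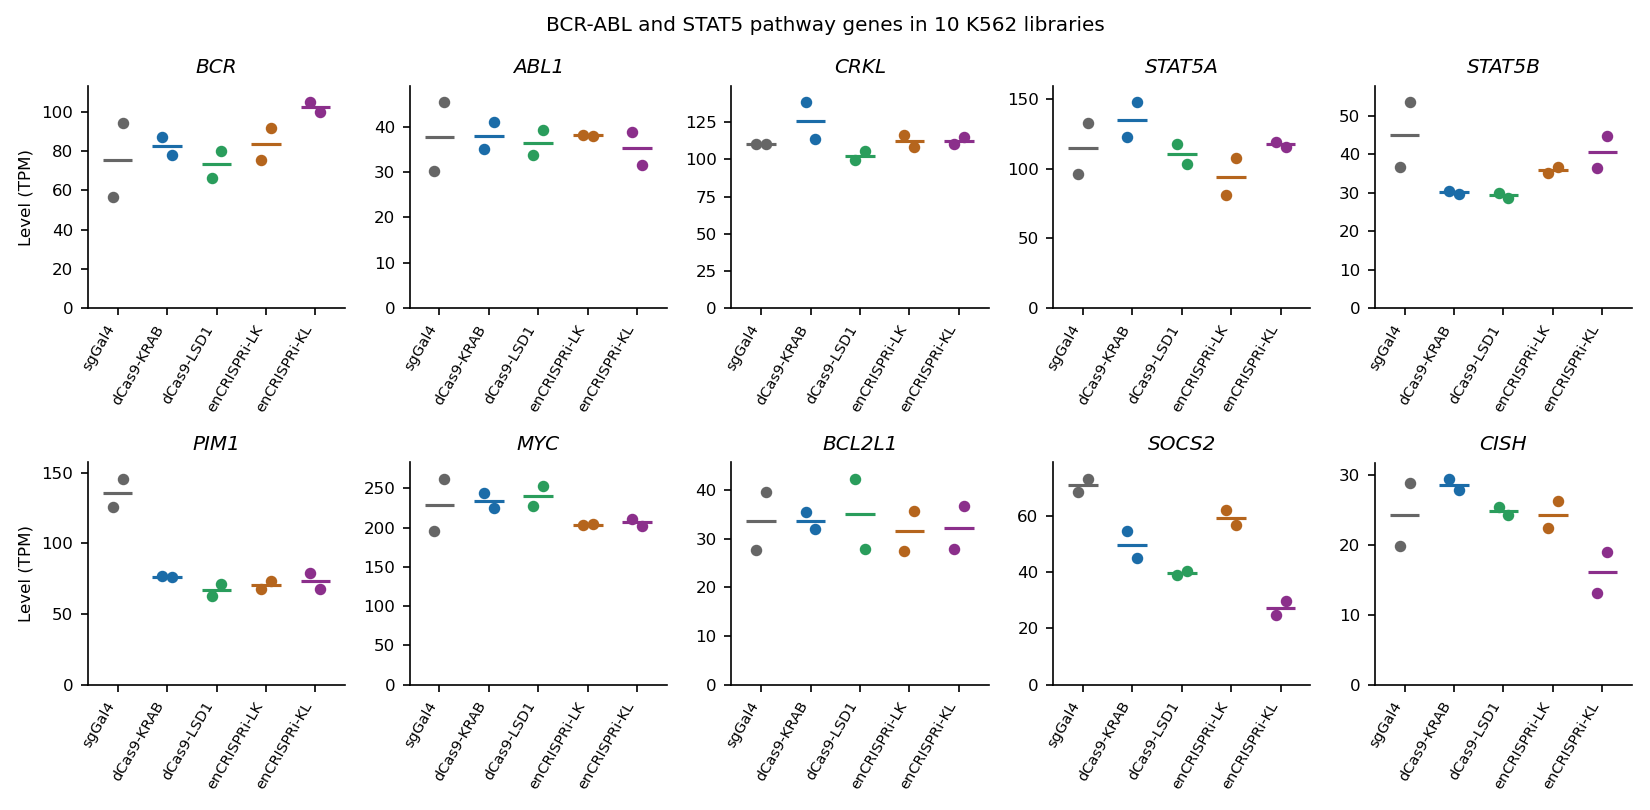
Level in TPM of each of the 10 genes (linear axes from 0) in each library, as points by group, with a bar at the mean of the 2 libraries of a group. PIM1 stands at 62.44 to 79.21 TPM in the 8 sgHS2 libraries and at 125.73 and 145.52 TPM in the sgGal4 libraries, and SOCS2 is lowest in the enCRISPRi-KL libraries.

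The label check and the make-up of the libraries bear on these results. HBE1, an embryonic β-like globin gene under HS2, stood at 1376.35 and 1619.66 TPM in the sgGal4 libraries and at 361.31 to 1019.3 TPM in the sgHS2 libraries. HBG2, a fetal γ-globin gene under HS2, stood at 941.16 and 673.1 TPM in sgGal4 and at 222.48 to 697.86 TPM in the sgHS2 libraries, and its dCas9-KRAB libraries overlapped sgGal4. KLF1, an erythroid transcription factor gene, went the other way, from 20.25 and 24.05 TPM in sgGal4 to 35.91 to 52.37 TPM in the sgHS2 libraries (adjusted p = 0.00861 for their mean). KDM1A, the gene of LSD1, read 104.7 and 84.17 TPM under the dCas9-LSD1 label and 25.21 to 33.51 TPM in all others, those labelled with a dual effector included. ZNF10, the source of the KRAB domain in common use, stood at 0.97 to 3.8 TPM in the libraries labelled sgGal4 and dCas9-KRAB and at 31.47 to 364.95 TPM in the other 6. The levels of the effector genes thus go against the labels of some groups, and the group names below stand for the labels. The 13 mitochondrial genes took 39.88 to 53.64% of the listed TPM, with the highest share in replicate 1 of sgGal4. With these genes removed and the rest rescaled, PIM1 differed by -1.02 and SOCS2 by -0.84 between the sgHS2 mean and sgGal4. The same step moved the median difference of all genes by -0.0955. Of 8 markers of K562 and erythroid cells, 7 were present, and GATA1, a defining factor of the line, had a listed value of 0 throughout, like 4 of the 10 markers of other cells. The 10 markers of other cells summed to 71.91 and 86.01 TPM in sgGal4 and to 30.32 to 76.63 TPM in the sgHS2 libraries, nearly all of it from EPCAM and CD3D, while the T cell gene CD3E was at 0. CD3D stood at 26.07 and 33.62 TPM in sgGal4 and at 1.65 to 21.32 TPM in the sgHS2 libraries (adjusted p = 0.0792 for their mean), and EPCAM at 26.94 to 65.15 TPM in all 10. Their part in the results was not tested. In bulk RNA, fewer cells of a kind and less RNA per cell cannot be told apart. A value of 0 in these files can be a failed estimate, so such genes are given only as listed at 0.

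PIM1 codes for a serine/threonine kinase of cell survival and lies on chromosome 6 (GRCh37, 37137928 to 37143204, plus strand, 6 exons in its main transcript). Its level was 125.73 and 145.52 TPM in the sgGal4 libraries, 76.68 and 75.85 TPM with dCas9-KRAB, 62.44 and 70.86 TPM with dCas9-LSD1, 67.86 and 73.54 TPM with enCRISPRi-LK, and 79.21 and 67.68 TPM with enCRISPRi-KL. All 8 sgHS2 libraries lay below both sgGal4 libraries. Over all genes tested, 11.8% had no overlap between these 8 and 2 libraries. The groups ranked sgGal4, K, KL, LK and L from high to low, and each neighbouring pair after sgGal4 had overlapping libraries. PIM1 fell by 0.82 (SE 0.177, adjusted p = 0.0366) with dCas9-KRAB, to 0.567-fold on the TPM + 1 scale. With dCas9-LSD1 the log2 difference was -1.01 (adjusted p = 0.0162), or 0.495-fold. The log2 difference was -0.93 with enCRISPRi-LK (adjusted p = 0.017) and -0.88 with enCRISPRi-KL (adjusted p = 0.0212). None of these 4 limma calls held without a trend of variance with level (adjusted p from 0.127 to 0.168). None held in a fit of only the groups compared (adjusted p from 0.0708 to 0.14). The call for dCas9-KRAB alone was lost when any 1 of the 10 libraries was left out (adjusted p from 0.0508 to 0.149). The calls for the other 3 groups were each lost without replicate 2 of sgGal4 (adjusted p = 0.0504, 0.0605 and 0.0865 for L, LK and KL) and without either library of the group itself (adjusted p from 0.0703 to 0.231). The fall in the mean of the 4 groups (adjusted p = 0.00289) held without each library in turn (adjusted p from 0.00486 to 0.0299). No difference in PIM1 between dual and single effectors was detected, with a log2 difference of 0.01 (95% confidence interval -0.25 to 0.28).

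SOCS2 codes for a suppressor of cytokine signalling that targets the growth hormone receptor for degradation, and lies on chromosome 12 (GRCh37, 93963590 to 93977263, plus strand). Its level was 68.40 and 72.98 TPM in the sgGal4 libraries, 61.85 and 56.56 TPM with enCRISPRi-LK, 54.34 and 44.91 TPM with dCas9-KRAB, 38.77 and 40.46 TPM with dCas9-LSD1, and 24.58 and 29.56 TPM with enCRISPRi-KL. In this order, which was taken from the SOCS2 values, no neighbouring groups overlapped. For a single pair of groups, a sgHS2 group against sgGal4 or enCRISPRi-LK against enCRISPRi-KL, 41.3 to 45.7% of all genes had no overlap. The share of all genes with all 5 groups apart was not counted. SOCS2 fell by 1.36 (SE 0.202, adjusted p = 0.00295) with enCRISPRi-KL, to 0.39-fold, and the call held without each library in turn (adjusted p from 0.00472 to 0.0424). Against sgGal4 the log2 difference was -0.51 with dCas9-KRAB (adjusted p = 0.243), -0.82 with dCas9-LSD1 (adjusted p = 0.0805) and -0.25 with enCRISPRi-LK (95% confidence interval -0.69 to 0.18, adjusted p = 0.63). The difference for dCas9-LSD1 passed the test after scaling by size factors (adjusted p = 0.0478) and after removal of the mitochondrial genes (adjusted p = 0.0349). That removal moved the median of all genes by -0.0464 for dCas9-LSD1 against sgGal4. The fall in the mean of the 4 groups (adjusted p = 0.0242) was lost without replicate 1 of sgGal4 (adjusted p = 0.124), replicate 2 of sgGal4 (adjusted p = 0.116) or replicate 2 of enCRISPRi-LK (adjusted p = 0.0604). SOCS2 was 2.15-fold higher with enCRISPRi-LK than with enCRISPRi-KL, a log2 difference of 1.11 (SE 0.202, 95% confidence interval 0.67 to 1.54, adjusted p = 0.0281). With any 1 of the 4 libraries of these groups left out, the log2 difference stayed between 0.98 and 1.23 and did not pass the test (adjusted p from 0.139 to 0.307). No difference in SOCS2 was detected between the means of the dual and the single effectors (log2 difference -0.14, 95% confidence interval -0.45 to 0.16).

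**Figure D2:**
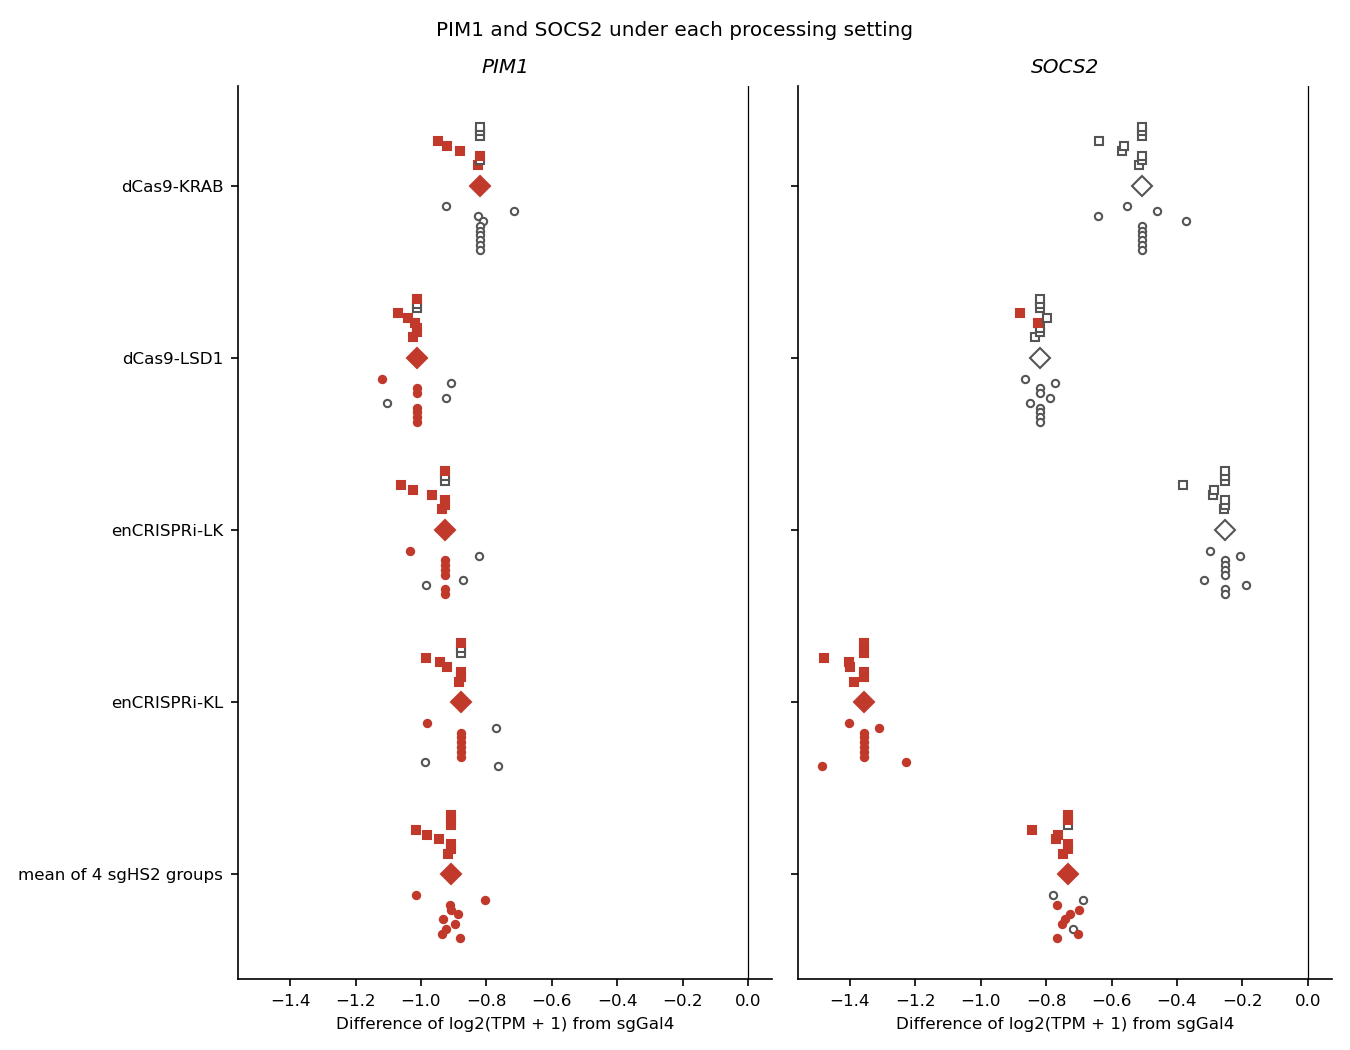
Difference of log2(TPM + 1) from sgGal4 for PIM1 and SOCS2 in each group and in their mean (diamonds, as reported), under 9 other settings (squares above) and with each of the 10 libraries left out (circles below); filled red symbols have an adjusted p under 0.05 and points are spread vertically for legibility. All values are below 0, and the PIM1 mean and SOCS2 with enCRISPRi-KL are filled throughout. Some settings leave the difference itself unchanged, and for the mean the fit of only the groups compared repeats the main fit.

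CISH, the second SOCS family gene of the set, codes for an inhibitor that docks on activated cytokine receptors and lies on chromosome 3 (GRCh37, 50643920 to 50649205, minus strand). It had the lowest level of the 10 genes, with 19.75 and 28.80 TPM in sgGal4, 29.40 and 27.79 TPM with dCas9-KRAB, 25.45 and 24.30 TPM with dCas9-LSD1, 22.36 and 26.26 TPM with enCRISPRi-LK, and 13.13 and 19.00 TPM with enCRISPRi-KL. Both enCRISPRi-KL libraries lay below the other 8, as they did for SOCS2, and 7.3% of all genes had no overlap between these 2 and 8 libraries. This split is not among the comparisons tested, so the share is a description. The log2 difference from sgGal4 was -0.56 with enCRISPRi-KL (95% confidence interval -1.14 to 0.01, adjusted p = 0.354). Between enCRISPRi-LK and enCRISPRi-KL it was 0.59 (95% confidence interval 0.01 to 1.16, adjusted p = 0.497), so that CISH did not pass over all genes. The ratio of SOCS2 to CISH was 3.46 and 2.53 in the sgGal4 libraries, 2.77 and 2.15 with enCRISPRi-LK, and 1.52 to 1.87 in the other 6. Up to 2.94% of the 50-base windows of the CISH transcript also occur in transcripts of MAPKAPK3, its neighbour.

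STAT5A and STAT5B code for the near-identical STAT5 factors and lie side by side on chromosome 17 (GRCh37), STAT5B at 40351194 to 40440651 on the minus strand and STAT5A at 40439565 to 40463961 on the plus strand. STAT5B stood at 36.77 and 53.46 TPM in sgGal4, 30.54 and 29.68 TPM with dCas9-KRAB, 30.03 and 28.60 TPM with dCas9-LSD1, 35.11 and 36.60 TPM with enCRISPRi-LK, and 36.35 and 44.75 TPM with enCRISPRi-KL. All 4 single-effector libraries lay below the other 6, and 1.25% of all genes had no overlap between these 4 and 6 libraries. This split follows the STAT5B values and is not among the comparisons tested, so the share is a description and not a test. The log2 difference from sgGal4 was -0.54 with dCas9-KRAB (adjusted p = 0.276) and -0.58 with dCas9-LSD1 (adjusted p = 0.304), and that of dual against single effectors was 0.35 (95% confidence interval -0.01 to 0.70, adjusted p = 0.682). STAT5A stood at 96.46 and 132.99 TPM in sgGal4, 123.11 and 147.71 TPM with dCas9-KRAB, 117.58 and 103.34 TPM with dCas9-LSD1, 80.87 and 107.96 TPM with enCRISPRi-LK, and 119.49 and 115.71 TPM with enCRISPRi-KL. For STAT5A every sgHS2 group overlapped sgGal4, and the log2 differences from sgGal4 ran from -0.27 to 0.25. STAT5A was the more abundant in every library, with a ratio to STAT5B of 2.62 and 2.49 in sgGal4, 3.61 to 4.98 in the single-effector libraries and 2.3 to 3.29 in the dual-effector libraries. The split of reads between these genes is uncertain. Their spans overlap by 1087 bases on opposite strands in the GENCODE annotation. The RefSeq promoter entries (GRCh38.p14) lie apart, at 42276342-42276641 for STAT5B and 42287189-42287488 for STAT5A. Neither the annotation nor the use of strand in the counting is given. Of the 50-base windows of their transcripts, 15.1% for STAT5A and 10.08% for STAT5B occur in both genes, and reads with more than 1 location were dropped.

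BCR, ABL1 and CRKL are the partners of the fusion and its substrate. BCR, at 23521891 to 23660224 on chromosome 22 (GRCh37, plus strand), had 56.73 and 94.24 TPM in sgGal4, 86.93 and 78.09 TPM with dCas9-KRAB, 66.36 and 80.12 TPM with dCas9-LSD1, 75.49 and 91.56 TPM with enCRISPRi-LK, and 104.79 and 100 TPM with enCRISPRi-KL. Both enCRISPRi-KL libraries were the highest of the 10, a split without overlap that 7.3% of all genes showed in either direction. This split is not among the comparisons tested. The log2 difference of BCR from sgGal4 was 0.48 with enCRISPRi-KL and did not pass the test (95% confidence interval -0.004 to 0.96, adjusted p = 0.344). ABL1, at 133588430 to 133763062 on chromosome 9 (GRCh37, plus strand), ranged from 30.25 to 45.37 TPM, and both ends of the range were sgGal4 libraries. The group means of ABL1 ran from 35.2 to 38.14 TPM, and the 95% confidence intervals of its log2 differences from sgGal4 spanned -0.59 to 0.55. The ratio of BCR to ABL1 was 1.88 and 2.08 in sgGal4, 1.9 to 2.48 in 6 libraries of the K, L and LK groups, and 2.7 and 3.17 with enCRISPRi-KL. A level of BCR or ABL1 sums the normal transcripts and the fusion transcript, which cannot be told apart per gene, and 21.1% of the 50-base windows of BCR occur in transcripts of other genes. CRKL, at 21271695 to 21308035 on chromosome 22 and 2214 kb from BCR, had 110.21 and 110.55 TPM in sgGal4 and 99.47 to 138.28 TPM in the sgHS2 libraries. Its highest value was replicate 1 of dCas9-KRAB, and its group means ran from 102.4 to 126.1 TPM.

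MYC codes for a transcription factor of growth and had the highest level of the 10 genes. MYC stood at 195.14 and 261.92 TPM in sgGal4, 243.84 and 224.37 TPM with dCas9-KRAB, 227.38 and 252.76 TPM with dCas9-LSD1, 202.93 and 204.19 TPM with enCRISPRi-LK, and 211.08 and 201.87 TPM with enCRISPRi-KL. The 4 dual-effector libraries lay below the 4 single-effector libraries, and 3.33% of all genes had no overlap between these 4 and 4 libraries, but the sgGal4 libraries fell on either side of both. The log2 difference of dual from single effectors was -0.21 for MYC (95% confidence interval -0.44 to 0.03, adjusted p = 0.737). BCL2L1, which codes for the survival protein BCL-XL and lies on chromosome 20 (GRCh37, 30252255 to 30311792, minus strand), ranged from 27.42 to 42.33 TPM. Every group of BCL2L1 overlapped every other, with group means of 31.54 to 35.14 TPM. The antisense gene ABALON holds 33.58% of the 50-base windows of BCL2L1, and since the use of strand in the counting is not given, reads of the pair cannot be told apart.

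**Figure D3:**
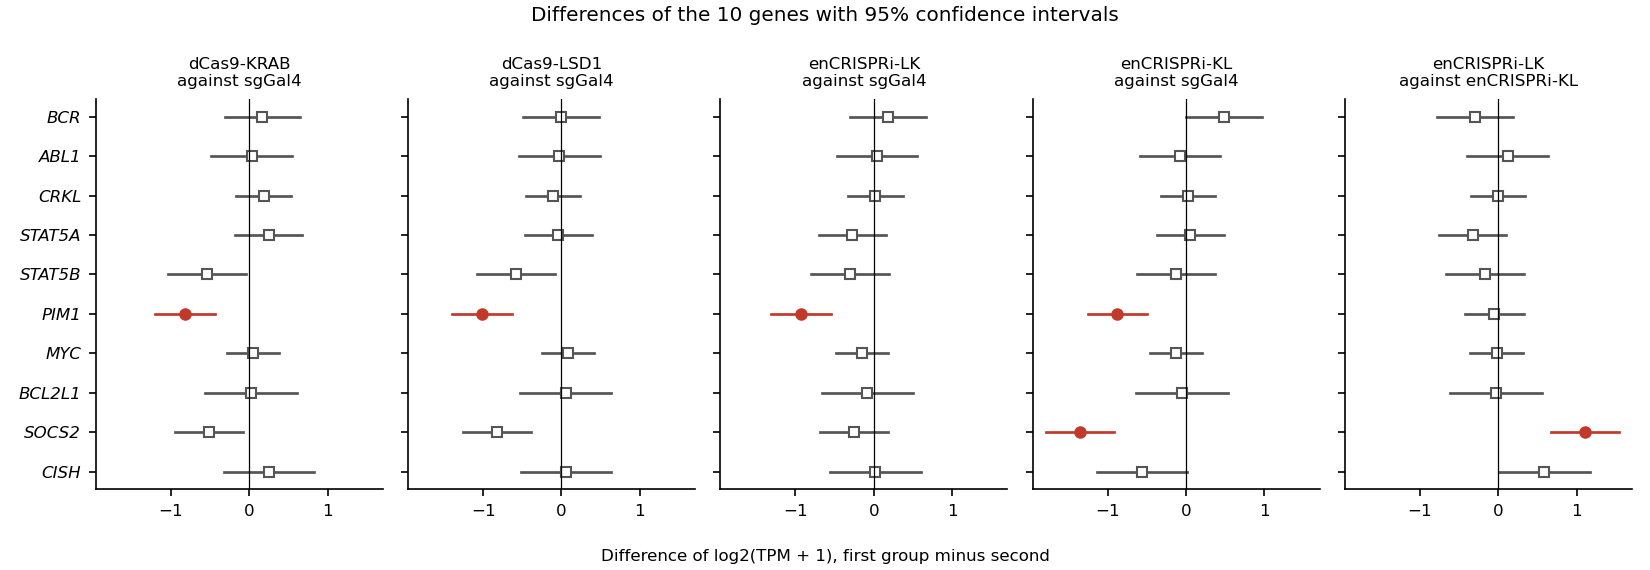
Difference of log2(TPM + 1) for the 10 genes in 5 comparisons, first group minus second, with 95% confidence intervals from limma; filled red circles have an adjusted p under 0.05 and open squares do not. PIM1 is below 0 in each comparison with sgGal4, and SOCS2 is called with enCRISPRi-KL against sgGal4 and between the dual effectors.

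The SD of the group means was above the SD within groups for PIM1, SOCS2, STAT5B, CISH and CRKL. It was below the SD within groups for BCR, ABL1, STAT5A, MYC and BCL2L1. A mean of 2 libraries varies less than a single library even without a difference between groups, so these SDs are not on a par. Only PIM1 and SOCS2 passed the test for any difference among the 5 groups. The SD of log2(TPM + 1) within groups was 0.118 for PIM1 and 0.129 for SOCS2, below the median of 0.311 over all genes tested, and the SD of their group means was 0.413 and 0.527. For STAT5B, CISH and CRKL the SD within groups was 0.193, 0.242 and 0.0993, and that of the group means was 0.253, 0.306 and 0.104. For ABL1 and BCL2L1 the SD within groups was 0.224 and 0.299, and that of the group means was 0.0486 and 0.0544. From the lowest to the highest library, SOCS2 differed 2.97-fold, PIM1 2.33-fold and CISH 2.24-fold, and MYC differed 1.34-fold.

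The wider pathway was read in 10 lists of 147 genes in all, of which 115 entered the tests. With the sgHS2 groups averaged, 3 of the 115 fell against sgGal4, 0 rose, and 112 did not pass (2.61% called, against 3.26% of all genes). The median difference over the 115 was -0.06. The 3 genes were CDKN1A, BBC3 and SH2B3, each in a different list, and each of these calls was lost when either sgGal4 library was left out. Against sgGal4, 2 of the 115 passed with dCas9-KRAB (1.74%, against 1.62% of all genes) and 3 with enCRISPRi-LK (2.61%, against 2% of all genes). In the limma test 0 passed with dCas9-LSD1 or enCRISPRi-KL, against 0.869% and 1.36% of all genes. An unadjusted p under 0.05 was found for 22 list genes in each of these comparisons (19.1%, against 12.8% and 14.7% of all genes). Between dual and single effectors 0 passed in limma, and 10 had an unadjusted p under 0.05 (8.7%, against 7.45% of all genes).

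CDKN1A, which codes for the cell cycle inhibitor p21, was 1 of 10 tested genes in the list of other STAT5 outputs. Its level was 8.52 and 10.94 TPM in sgGal4, 1 and 0.6 TPM with dCas9-KRAB, 2.05 and 1.91 TPM with dCas9-LSD1, 1.04 and 2.27 TPM with enCRISPRi-LK, and 1.59 and 3.57 TPM with enCRISPRi-KL. All 8 sgHS2 libraries were below both controls, in a split where 11.8% of all genes had no overlap. CDKN1A fell by 2.02 on the log2(TPM + 1) scale in their mean (adjusted p = 0.00568). It fell by 2.58 with dCas9-KRAB (adjusted p = 0.011) and by 2.05 with enCRISPRi-LK (adjusted p = 0.0298). The call for the mean was lost without replicate 1 or replicate 2 of sgGal4 (adjusted p = 0.0666 and 0.0724), those for K and LK without either library of the group itself or replicate 1 of sgGal4 (adjusted p from 0.0538 to 0.253), and that for LK also without replicate 2 of sgGal4 (adjusted p = 0.128). Over the 10 tested genes of this list the median log2 difference for the sgHS2 mean was -0.38, against 0.03 over all genes. This median was not tested. In the same list CCND3, a D-type cyclin, and TFRC, the transferrin receptor, were the most abundant, at 101 and 220.5 TPM on average. CCND1, another cyclin, was lower with enCRISPRi-LK (1.63 and 7.18 TPM) than with enCRISPRi-KL (25.86 and 19.88 TPM), with a log2 difference of -2.35 (adjusted p = 0.0392), a call that held in 1 of 8 other settings. Of the fits with a library left out it held only without replicate 1 of dCas9-LSD1 or replicate 2 of enCRISPRi-LK, and without replicate 1 of enCRISPRi-LK, the lowest library, the difference was -1.53 (adjusted p = 0.337). Between these groups 1 of the 115 genes passed, against 0.385% of all genes.

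BBC3, which codes for the pro-apoptotic protein PUMA, was 1 of 10 tested genes of the BCL2 family beside BCL2L1, and the other 9 did not pass in any comparison. It stood at 10.08 and 13.89 TPM in sgGal4, 1.6 and 2.24 TPM with dCas9-KRAB, 3.65 and 2.46 TPM with dCas9-LSD1, 2.38 and 1.79 TPM with enCRISPRi-LK, and 6.91 and 2.41 TPM with enCRISPRi-KL. BBC3 fell by 1.80 in the mean of the sgHS2 groups (adjusted p = 0.0132), by 2.15 with dCas9-KRAB (adjusted p = 0.0317) and by 2.06 with enCRISPRi-LK (adjusted p = 0.031). Each of these calls was lost without replicate 1 or replicate 2 of sgGal4 (adjusted p from 0.0953 to 0.137), those for K and LK also without either library of the group itself (adjusted p from 0.125 to 0.266), and that for K without replicate 2 of enCRISPRi-LK (adjusted p = 0.0502). The median log2 difference over the 10 tested genes of this list was -0.14 for the sgHS2 mean. The survival gene MCL1 had 66.21 TPM on average, and BID, a BH3-only gene, had 51.45 TPM.

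Among the 10 tested genes of the other SOCS and STAT5 brakes, SH2B3 passed and 9 did not. SH2B3 codes for the adaptor LNK, a brake on JAK2 signalling. It stood at 33.49 and 41.66 TPM in sgGal4, 20.86 and 15.17 TPM with dCas9-KRAB, 19.55 and 15.32 TPM with dCas9-LSD1, 18.68 and 19.35 TPM with enCRISPRi-LK, and 22.47 and 22.01 TPM with enCRISPRi-KL. The log2 difference of SH2B3 in the mean of the sgHS2 groups was -0.94 (adjusted p = 0.0247), and it did not pass without replicate 1 or 2 of sgGal4 (adjusted p = 0.097 and 0.171) or of enCRISPRi-LK (adjusted p = 0.0526 and 0.0517). The median log2 difference over the 10 tested genes was -0.08 for the sgHS2 mean. PTPN2 and PIAS1 were the most abundant of this list, at 45.7 and 36.81 TPM.

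In the list of MYC partners and outputs, 1 of 15 tested genes passed in any comparison. MXI1, which codes for a MAX partner that opposes MYC, fell by 1.79 with enCRISPRi-LK (SE 0.342, adjusted p = 0.017), and the log2 difference in the mean of the sgHS2 groups was -1.03 (adjusted p = 0.0556). The call with enCRISPRi-LK was lost when any 1 library of sgGal4 or enCRISPRi-LK was left out (adjusted p from 0.0568 to 0.18). The median log2 difference over the 15 tested genes was 0.04 for the sgHS2 mean. NPM1 and NCL, which code for nucleolar proteins, were the most abundant at 3060 and 887.4 TPM.

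The other 6 lists held no gene past the limma threshold in any of the 8 comparisons, and 17 of their 72 tested genes had an unadjusted p under 0.05 for the sgHS2 mean (23.6%, against 17.1% of all genes). For the mean of the sgHS2 groups the median log2 difference was -0.14 over 16 tested adaptors, substrates and brakes of BCR-ABL, led by GRB2 (75.13 TPM) and PTPN11 (49.39 TPM). It was -0.02 over the 18 RAS, ERK and PI3K kinases. It was -0.13 over 10 feedback genes of ERK, -0.07 over 9 JAKs and cytokine receptors and 0.19 over the 5 other STATs, of which STAT3 was the most abundant at 35.72 TPM. Of the 16 JAKs and receptors, 7 were below the filter, and CSF2RA, IL3RA and GHR were among those listed at 0 throughout, while TYK2 had 50.24 TPM. The median was 0.13 over 14 tested neighbours of BCR and ABL1 on chromosomes 9 and 22. Of these, NUP214, a nuclear pore gene near ABL1, had 818 TPM and PPIL2 had 274.7 TPM on average, above BCR and ABL1 on this length-scaled measure.

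**Figure D4:**
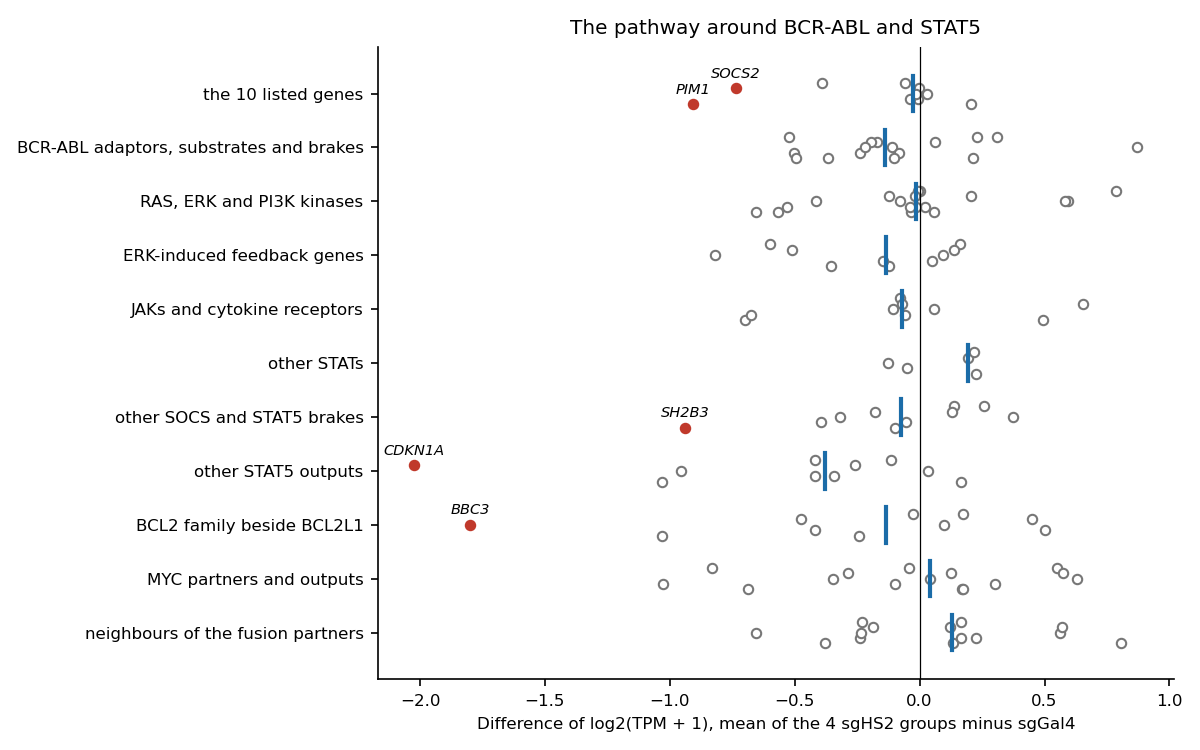
Difference of log2(TPM + 1), mean of the 4 sgHS2 groups minus sgGal4, for each tested gene of the 10 genes and of the 10 pathway lists, with a blue bar at the median of each; filled red circles have an adjusted p under 0.05, and the vertical spread within a list only separates points. The called genes PIM1, SOCS2, SH2B3, CDKN1A and BBC3 all lie below 0.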

How the data were processed

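The 10 genes and the 10 pathway lists were chosen with earlier results of these data known. RNA-seq was read in 10 K562 libraries, grouped by the titles in the labels. The authors used STAR (version 2.5.2b per the submitters' notes) and hg19 for alignment, discarded reads with several locations, and deposited RSEM values in TPM for 20535 gene symbols. The annotation is not given in the sources used here. The labels name a poly(A) directional kit and the methods an Ovation kit. TPM keeps no read totals, so depth is unknown, and no detection limit or counting interval was given. The DESeq2 test named by the study needs counts and was not repeated.

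From the deposited TPM, log2(TPM + 1) was taken for 10127 genes (mean over libraries of 1 TPM or more) and fitted by group in limma (version 3.58.1, R 4.3.3) over all 10 libraries (5 residual degrees of freedom), with variances moderated along a trend and p values adjusted by Benjamini-Hochberg over all genes of each of 8 comparisons. Such differences understate the change of low genes. The code was tested on simulated data. Named beside the 10 genes were every list gene past the threshold and the 2 most abundant of a list. For PIM1 and SOCS2, the genes of most similar pattern were taken by Pearson correlation over the libraries. Alternatives were a pseudocount of 0.1, no filter, a filter at 10 TPM, size factors, quantile normalization, removal of mitochondrial genes, no trend, only the groups compared, the replicate block and leaving out each library. Gene positions and shared windows came from GENCODE mapped to GRCh37, and promoters from RefSeq (GRCh38.p14). Plots were drawn with matplotlib 3.10.9 (Python 3.11.15).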

Additional observations from a re-analysis of the deposited data

Results flagged for a closer look

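SOCS2 differed between the dual-effector arrangements, and the difference itself was tested: it was 1.11 higher on the log2(TPM + 1) scale with enCRISPRi-LK than with enCRISPRi-KL (adjusted p = 0.0281 by limma), with 61.85 and 56.56 TPM against 24.58 and 29.56 TPM. Both groups are labelled with the same pair of effectors. KDM1A was at 26.6 to 30.6 TPM in these 4 libraries, and ZNF10 was at 36.83 and 31.47 TPM with enCRISPRi-LK and at 364.95 and 359.86 TPM with enCRISPRi-KL. The part of the effector levels in the difference was not tested.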

How the results depend on the processing

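With 2 libraries a group and unknown depth, the number of calls depended on the fit. Without the mean-variance trend, 0 of the 10 genes passed for any difference, K, L, LK and LK against KL. In that fit only SOCS2 passed for KL and only PIM1 for the sgHS2 mean. In a fit of only the groups compared, 0 passed for K, L, LK and LK against KL, and 1, SOCS2, for KL. PIM1 thus passed in none of the single groups in either fit. With no filter on low values, 1 passed for any difference and 0 for K and for LK against KL. With size factors or without mitochondrial genes, 2 passed for L. With the replicate block, 0 passed for K (PIM1 adjusted p = 0.0532), CCND1 did not pass between LK and KL (adjusted p = 0.0512), and no other call of the 10 genes or the lists was lost. No shared effect of the replicate number was seen: deviations of replicate 1 correlated between groups at -0.0213 to 0.0229. These values do not show whether the libraries were made in pairs. Leaving out each library in turn gave 0 to 2 calls for any difference, 0 for K, 0 to 1 for L, LK and LK against KL, and 1 to 2 for KL and the sgHS2 mean, while dual against single effectors gave 0 throughout. A lone sample was assumed to vary like the other groups. The PIM1 fall in the sgHS2 mean and the SOCS2 fall with KL passed in 9 of 9 settings (adjusted p from 0.000911 to 0.0482 and from 0.00123 to 0.0327). The SOCS2 difference between LK and KL passed in 6 of 9 (adjusted p up to 0.125) and the SOCS2 fall in the mean in 8 of 9 (up to 0.1). For the sgHS2 mean, the fit of only the groups compared repeats the main fit. In every count given for this mean, that setting could not lose a call. The directions of all called differences did not turn in any setting run. No filter, the filter at 10 TPM, no trend, only the groups compared and the replicate block leave each difference itself unchanged. So does leaving out a library outside the comparison. Only the other fits could turn a direction. Among the 62 uncalled gene and comparison pairs, 24 of 558 values in other settings and 73 of 620 values with a library left out had the opposite sign. These totals include the fits that could not change a difference, so they understate how often a sign turned where it could. For list genes in the sgHS2 mean, CDKN1A passed in 8 of 8 settings, BBC3 in 7 of 8 and SH2B3 in 7 of 9, and MXI1 with LK in 7 of 9. CDKN1A passed in 7 of 8 with K but in 4 of 8 with LK (adjusted p up to 0.0811), BBC3 in 6 of 8 with K and with LK (up to 0.107 and 0.113), and CCND1 between LK and KL in 1 of 8 (up to 0.163).

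Over all genes, the calls for the sgHS2 mean ran from 99 (no trend) to 374 across settings against 330 as reported, for any difference from 39 to 217, for K from 14 to 226, for L from 22 to 151, for LK from 15 to 242, for KL from 66 to 197, for dual against single from 4 to 15 and for LK against KL from 17 to 52. Removing the mitochondrial genes moved the median of all genes by -0.116 for K and -0.122 for LK.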

Other observations

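The genes whose pattern over the 10 libraries was most like that of PIM1 were TIMP1 (Pearson r = 0.95), FDFT1 (r = 0.949) and RPL8 (r = 0.948). TIMP1, a metalloproteinase inhibitor, stood at 510.38 and 502.07 TPM in sgGal4 and at 229.49 to 292.39 TPM in the sgHS2 libraries. FDFT1, which codes for squalene synthase, stood at 194.16 and 233.26 TPM in sgGal4 and at 61.85 to 84.41 TPM in the others. RPL8, a ribosomal protein gene, stood at 2293.82 and 2525.27 TPM in sgGal4 and at 1523.99 to 1738.84 TPM in the others. As with PIM1, no sgHS2 library reached the lower control.

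For SOCS2 the closest patterns were those of MUC4 (r = 0.975), TBX15 (r = 0.938) and BPTF (r = 0.936). MUC4, a membrane mucin gene, stood at 42.66 and 42.65 TPM in sgGal4, 26.56 and 23.42 TPM with dCas9-KRAB, 14.86 and 13.06 TPM with dCas9-LSD1, 25.1 and 29.61 TPM with enCRISPRi-LK, and 6.92 and 8.32 TPM with enCRISPRi-KL. MUC4 was thus lowest with enCRISPRi-KL, as SOCS2 was. TBX15, a T-box factor gene, was at 0.22 and 0.37 TPM with enCRISPRi-KL and at 0.49 to 2.5 TPM elsewhere. BPTF, a subunit of the chromatin remodeler NURF, was at 24.23 and 25.07 TPM with enCRISPRi-KL and at 25.25 to 40.33 TPM elsewhere. These correlations were the highest of all genes tested over libraries that share group labels, and are given as a description.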
